A study of Mus musculus with 12 samples.

Results

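The 10 corepressor genes *Sin3a*, *Sin3b*, *Hdac1*, *Hdac2*, *Hdac3*, *Rcor1*, *Rcor2*, *Kdm1a*, *Rest* and *Ncor1* were followed in single cells of the newborn mouse prefrontal cortex. They were listed by name as parts of the complexes through which the neuronal transcription factor MYT1L is said to repress other genes, and all 10 were found among the 18879 genes of the deposited matrix. *Rest* was highest in the endothelial types and low in neurons, *Rcor2*, *Kdm1a* and *Hdac2* were highest in the migrating SVZ1 type, and *Hdac1* took a larger share of the *Hdac1* and *Hdac2* signal outside the neuronal types. In the libraries of *Myt1l* mutants, *Kdm1a* and *Ncor1* were lower than in the wild-type library in at least 80% of the cell types measured, as were 16.4% of genes in heterozygotes and 23.2% in homozygotes, and the *Ncor1* mean in layer neurons turned positive once the trend of all genes by transcript length was removed.

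Animals were newborn mice at postnatal day 0 (P0), given as C57BL/6J in the labels, while the study's methods name C57BL/6N for the founders. They were either wild-type (WT), heterozygous (HET) or homozygous (HOM) for a *Myt1l* allele that lacks 7 bp of exon 6, which shifts the reading frame and ends it early. HET animals keep 1 wild-type allele, and a truncated MYT1L form remains in mutants, as the study describes. Prefrontal cortices of 2 animals per genotype were dissociated, fixed in methanol, labelled with barcode oligonucleotides and pooled into 1 droplet library per genotype, sequenced at the 5′ end of transcripts. Each library accounts for 4 of the 12 deposited samples, which are its runs, so the values below compare 3 libraries without replicates, and no difference between genotypes could be tested against the spread between animals. Genotypes were taken from the deposited cell table. The text of the study lists the same cell numbers with the genotypes in another order, in which the library called HET here is the wild-type, the one called HOM is heterozygous and the one called WT is homozygous, so every direction between genotypes rests on that table.

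SIN3 proteins are scaffolds that bring the histone deacetylases HDAC1 and HDAC2 to DNA-bound repressors. RCOR proteins (CoREST) join HDAC1 or HDAC2 to the histone demethylase KDM1A, and REST, which silences neuronal genes in cells that are not neurons, recruits both the SIN3 and the RCOR complexes. NCOR1 brings HDAC3 to nuclear receptors and other repressors. MYT1L is known to repress non-neuronal genes in neurons and to bind SIN3 and HDAC proteins.

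The data comprised 36263 cells of 21 deposited cell types, with 10503 WT, 12072 HET and 13688 HOM cells and a median of 1045, 1099 and 1330 molecules per cell. Totals per library were 23288915, 27370206 and 36398283 molecules, and 648 barcodes occurred in more than 1 library. Levels are given as depth-corrected values per 1000000 of all genes in a cell type and library (CPM), in the 18 types with at least 100 cells in every library. Marker lists of interneurons, striatal neurons, migrating progenitors, astrocytes, oligodendrocytes, microglia and endothelial cells were highest in types of that name, dividing progenitor markers in Ganglionic eminences [9-P] and mural cell markers in Endothelial2 [21-P]. Layer neuron markers were highest in SVZ1 (migrating) [2-P], followed by LayerII-IV [1-P], and blood markers in Endothelial1 [17-P]. Xist was detected in 2121 WT cells but in 2 HET cells and 1 HOM cell, and a Y-linked transcript in 603 WT, 1865 HET and 2086 HOM cells, so the sex of the animals differed between the WT library and the mutant libraries. *Myt1l* itself was measured at 370.3 CPM in WT, 449.7 CPM in HET and 709.8 CPM in HOM, and a 7 bp deletion does not remove the transcript, so this level does not check the genotype labels.

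The sequence AAAGTT, which MYT1L binds, was searched on both strands in the 250 bases before the start of each gene, to show which promoters of these genes hold it. RefSeq promoter windows on GRCm38.p6 were found for 7 of the 10 genes (9 windows), and not for *Rest*, *Hdac1* and *Hdac3*. Of all 32851 windows of the table, 4089 (12.4%) held the sequence, and among the windows of the corepressor genes only that of *Sin3b* did, on the reverse strand, with the first base of the match 202 bases before the start (position -202). The 3 windows printed here are that of *Sin3b*, with the match in capitals, and those of *Kdm1a* and *Rcor2*, which in SVZ1 were lower in both mutant libraries than in WT and in which these letters were not found. In *Rcor1* a match lay after the start, outside the window. They lie at chr8:72723020-72723269 (plus strand), chr4:136602724-136602973 (minus strand) and chr19:7267144-7267393 (plus strand), and each reads 5′ to 3′ towards the gene.
Sin3b: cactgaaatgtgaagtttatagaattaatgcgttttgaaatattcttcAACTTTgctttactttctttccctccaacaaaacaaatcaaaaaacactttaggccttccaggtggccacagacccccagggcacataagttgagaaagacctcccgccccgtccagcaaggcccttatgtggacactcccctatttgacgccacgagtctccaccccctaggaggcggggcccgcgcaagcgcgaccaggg
Kdm1a: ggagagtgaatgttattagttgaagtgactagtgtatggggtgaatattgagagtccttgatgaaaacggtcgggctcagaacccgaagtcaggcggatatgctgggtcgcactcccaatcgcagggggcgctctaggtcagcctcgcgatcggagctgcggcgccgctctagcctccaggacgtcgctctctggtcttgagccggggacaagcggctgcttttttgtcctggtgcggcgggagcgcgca
Rcor2: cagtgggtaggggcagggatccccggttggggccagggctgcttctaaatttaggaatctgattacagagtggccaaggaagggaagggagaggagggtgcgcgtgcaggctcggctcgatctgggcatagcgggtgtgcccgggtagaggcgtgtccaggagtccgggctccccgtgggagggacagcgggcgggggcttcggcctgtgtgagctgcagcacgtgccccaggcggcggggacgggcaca
A match in these letters is a description of the sequence and not evidence of binding.

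The levels of the 10 genes over the 18 cell types fell into flat and uneven patterns. *Sin3b* had the narrowest range, with a mean over the 3 libraries of 250.8 CPM in Astrocytes (immature) 1 [10-P] and 161.7 CPM in LayerV-VI [18-P], a ratio of 1.55. *Ncor1* varied 2.45-fold and *Hdac3* 2.5-fold, while *Rcor2* varied 24.9-fold and *Rest* 32.5-fold between their highest and lowest types. The heatmap of levels relative to each gene's own mean shows *Rest* against *Hdac2*, *Kdm1a* and *Rcor2* as the main contrast. On GRCm38 *Rest* lies at chr5:77265491-77286432, *Rcor2* at chr19:7267325-7275225, *Kdm1a* at chr4:136550540-136602723, *Hdac1* at chr4:129516104-129542713 and *Hdac2* at chr10:36974544-37001889. Cell types were named from the expression of the same cells, so these differences between types are descriptions.

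**Figure D1:**
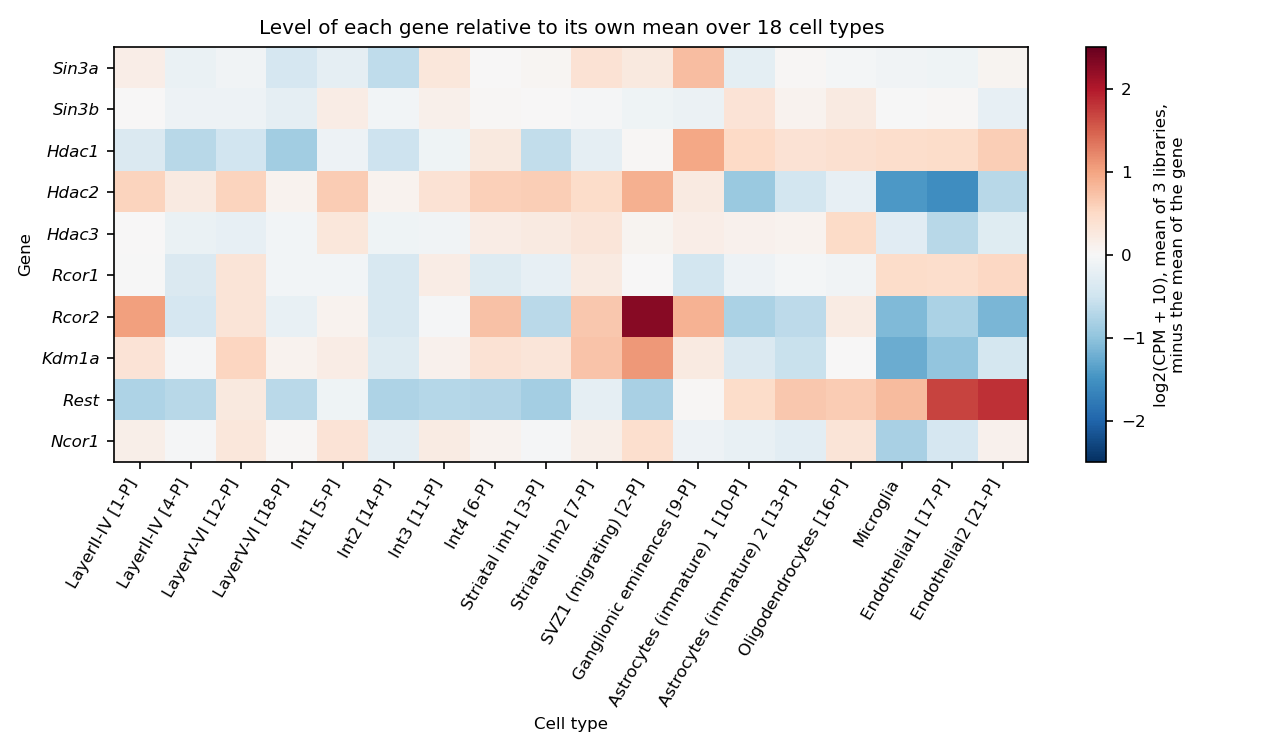
Level of each of the 10 corepressor genes in 18 cell types, as the mean over 3 libraries of log2(CPM + 10) minus the mean of that gene over the types. Values run from -1.55 to 2.28, with *Rcor2* in SVZ1 and *Rest* in both endothelial types as the strongest colours.

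*Rest* encodes the zinc finger repressor that recruits SIN3 and RCOR proteins to neuronal genes. Its level in Endothelial2 [21-P] was 95.4 in WT, 73.4 in HET and 42.3 CPM in HOM, and in Endothelial1 [17-P] it was 48.5, 68.6 and 64.5 CPM. These endothelial types stood above the next type, Microglia, in every library, where the levels were 11.2, 40.3 and 39.7 CPM. The neuronal types were at the other end. LayerII-IV [1-P], the type with the most neurons, held 2.74, 3.01 and 2.83 CPM, SVZ1 held 2.47, 2.78 and 1.97 CPM, and in Striatal inh1 [3-P] *Rest* was at 0 in WT, 2.40 in HET and 4.10 CPM in HOM. LayerV-VI [12-P] lay above the other layer types, with 24.6 in WT, 5.50 in HET and 22.8 CPM in HOM, from summed values of only 8, 3 and 15. Immature astrocytes lay between, at 24.3, 22.8 and 14.4 CPM in Astrocytes (immature) 1 [10-P] and 26.9, 30.1 and 18.8 CPM in Astrocytes (immature) 2 [13-P].

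The share of cells in which *Rest* was above 0 was also higher in the endothelial than in the neuronal types. In Endothelial1 [17-P] it was 6.04% in WT (exact Clopper-Pearson 95% interval 2.80 to 11.2), 8.41% in HET (5.14 to 12.8) and 8.23% in HOM (5.45 to 11.8), at median depths of 1408, 1226.5 and 1722 molecules. LayerII-IV [1-P], a neuronal type in which the gene is known to be silenced, gave 0.212% (0.0578 to 0.542), 0.353% (0.130 to 0.768) and 0.339% (0.137 to 0.698) at 1047, 1364.5 and 1953 molecules. The intervals of these types did not overlap in any library. SVZ1 cells had shares of 0.306%, 0.357% and 0.253% at median depths of 3889, 3915 and 4077.5 molecules. These intervals cover counting error only, and free RNA was not estimated.

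Averaged as log2(CPM + 10), *Rest* was higher in microglia and both endothelial types than in the 10 neuronal types by 1.71 in WT, by 2.30 in HET and by 1.87 in HOM, with a mean of 1.96 ± 0.31 (SD over 3 libraries). It was the 1 gene of the 10 that was higher by at least 1 log2 unit in all 3 libraries, a rule met by 8.64% of 9712 genes with at least 10 CPM on average. *Hdac1* came next at 0.97, 0.90 and 0.78, and *Rcor1* followed at 0.85, 0.43 and 0.36. In the opposite direction *Hdac2* was lower outside the neurons by 1.41, 1.63 and 1.89 (difference -1.41, -1.63 and -1.89), and it was the 1 gene of the 10 that met the rule downwards, where 9.6% of genes did. *Kdm1a* at -1.01, -1.32 and -0.9997 and *Rcor2* at -0.93, -1.38 and -1.05 lay just beside that threshold. Both fall with their libraries on either side of 1 log2 unit, and *Rcor2* moved to -1.93 with a pseudocount of 1 CPM and to -0.46 with 50 CPM.

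Astrocytes and ganglionic eminence cells were set against the neurons in the same way. *Hdac1* was higher there by 0.80, 0.96 and 1.18 log2 units and *Rest* by 0.96, 1.24 and 0.57, while *Hdac2* was lower, at -0.71, -0.92 and -0.78. None of the 10 genes differed by 1 log2 unit in all 3 libraries, beside 6.41% of genes that were higher and 5.7% that were lower. *Sin3b* and *Hdac3* differed by no more than 0.29 in any library in this contrast, and *Ncor1* was at -0.27, -0.30 and -0.30.

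**Figure D2:**
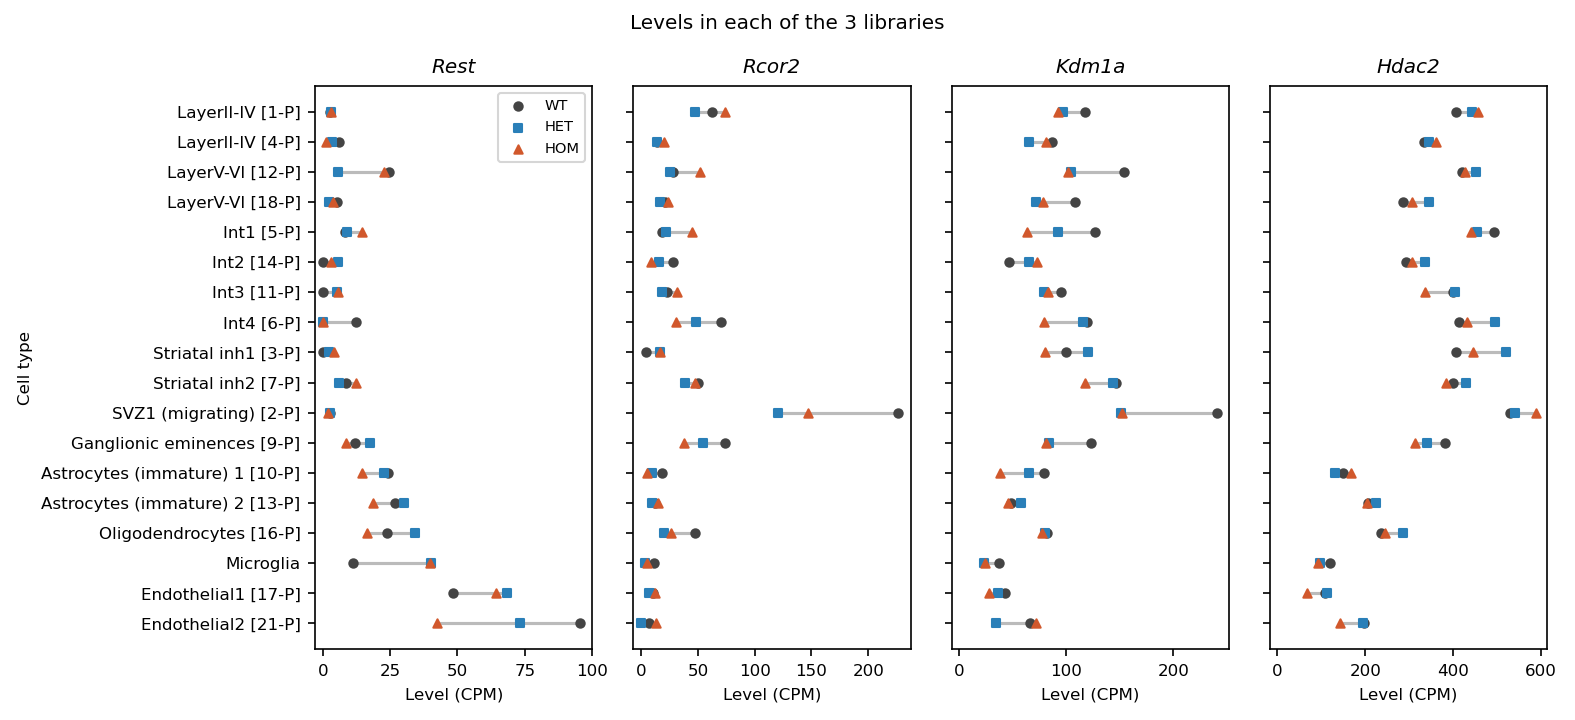
Level in CPM of *Rest*, *Rcor2*, *Kdm1a* and *Hdac2* in 18 cell types, with 1 point per library (WT circle, HET square, HOM triangle) and a grey line over their range. *Rest* lies between 42.3 and 95.4 CPM in the endothelial types, while *Rcor2* and *Kdm1a* stand apart in SVZ1, where WT lies above both mutant libraries.

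*Rcor2*, the CoREST paralog known from neural progenitors and neurons, was most concentrated in SVZ1 (migrating) [2-P]. There it reached 226.0 in WT, 120.8 in HET and 146.6 CPM in HOM, above the range of the next type, LayerII-IV [1-P], at 62.6, 47.2 and 73.9 CPM. Ganglionic eminences [9-P] held 73.9, 54.9 and 38.0 CPM and Int4 [6-P] 70.6, 48.4 and 30.8 CPM, and these ranges overlapped. At the low end Microglia held 11.2, 3.36 and 5.29 CPM. *Rcor2* was above 0 in 24.9% of WT (22.2 to 27.8), 14.1% of HET (11.3 to 17.2) and 17.8% of HOM SVZ1 cells (15.2 to 20.6), against 0.810% (0.0982 to 2.89), 0.360% (0.00911 to 1.99) and 0.578% (0.0701 to 2.07) of Microglia. SVZ1 cells were also deeper than Microglia, whose medians were 741, 760 and 818.5 molecules, and the part of depth in these shares was not tested.

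*Kdm1a*, the demethylase partner of the RCOR proteins, followed a like order. SVZ1 was highest with 240.8, 151.4 and 151.5 CPM and stood apart from Striatal inh2 [7-P], which had 146.0, 143.4 and 117.7 CPM. Microglia with 37.3, 23.5 and 23.8 CPM and Endothelial1 [17-P] with 43.1, 36.1 and 27.3 CPM were the lowest types. *Hdac2*, the deacetylase shared by SIN3 and CoREST complexes, was again highest in SVZ1 (530.1, 541.7 and 588.2 CPM), followed by Int1 [5-P] at 493.0, 454.5 and 442.0 CPM. It was at 119.3, 97.4 and 92.6 CPM in Microglia and 107.7, 111.9 and 67.0 CPM in Endothelial1 [17-P]. In *Hdac2*, 4 of the 17 pairs of neighbouring types in the order did not overlap, in *Kdm1a* 2, and in *Rcor2* and *Rest* 1 each, and in the other 6 genes every neighbour overlapped the next.

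Over the 18 types, the mean log2(CPM + 10) of *Hdac2* and *Kdm1a* had a Pearson correlation of 0.91 (n = 18), *Rcor2* and *Kdm1a* of 0.83, and *Hdac2* and *Rest* of -0.80. These are descriptions over types that share libraries, scaling and cell naming. Among 7322 genes with at least 20 CPM on average, the 3 with the pattern most like *Rest* were *Prxl2c* (r = 0.95), *Dnajc3* (0.93) and *Pttg1ip* (0.93). For *Rcor2* they were *March5* (0.91), *Vps72* (0.90) and *Ilf2* (0.88), and the most alike included *Hp1bp3* (0.96) and *Brd3* (0.95) for *Hdac2*, and *Nelfe* (0.94) and *Pnrc2* (0.93) for *Hdac1*.

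HDAC1 and HDAC2 are closely related enzymes that occupy the same place in SIN3, NuRD and CoREST complexes, and their transcripts were spread differently over the cells. *Hdac1* was highest in Ganglionic eminences [9-P], which hold the dividing progenitors, with 90.1 in WT, 63.7 in HET and 105.4 CPM in HOM. In LayerV-VI [18-P] it was lowest, with 14.1, 15.9 and 19.6 CPM. As a share of the summed values of both genes, *Hdac1* made up 39.4%, 32.6% and 41.3% in Endothelial1 [17-P] and 33.3%, 32.6% and 39.7% in Microglia. The share was 22.1%, 29.8% and 32.7% in Astrocytes (immature) 1 [10-P] and 19.1%, 15.8% and 25.2% in Ganglionic eminences [9-P]. Among the types that are neither neurons nor SVZ1 the lowest value in any library was 14.5% (HET Oligodendrocytes [16-P]), and among the neuronal types and SVZ1 the highest was 11.9% (WT Int4 [6-P]). The 2 sets of types therefore did not overlap in any of the 3 libraries. SVZ1 at 4.87%, 8.24% and 7.00% lay with the layer neurons, of which LayerII-IV [1-P] had 6.31%, 4.85% and 6.99%. In cells with at least 2000 molecules the mean share was 57.1% in Microglia and 56.9% in Endothelial1 [17-P], from few cells, and 4.24% in LayerII-IV [1-P]. There the sets overlapped in HET, where Int2 [14-P] was at 20.8% (summed values 5 and 19) and Ganglionic eminences [9-P] at 16.4%. The share is read between types only, since reads from the 5′ end need not catch both transcripts equally well.

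**Figure D3:**
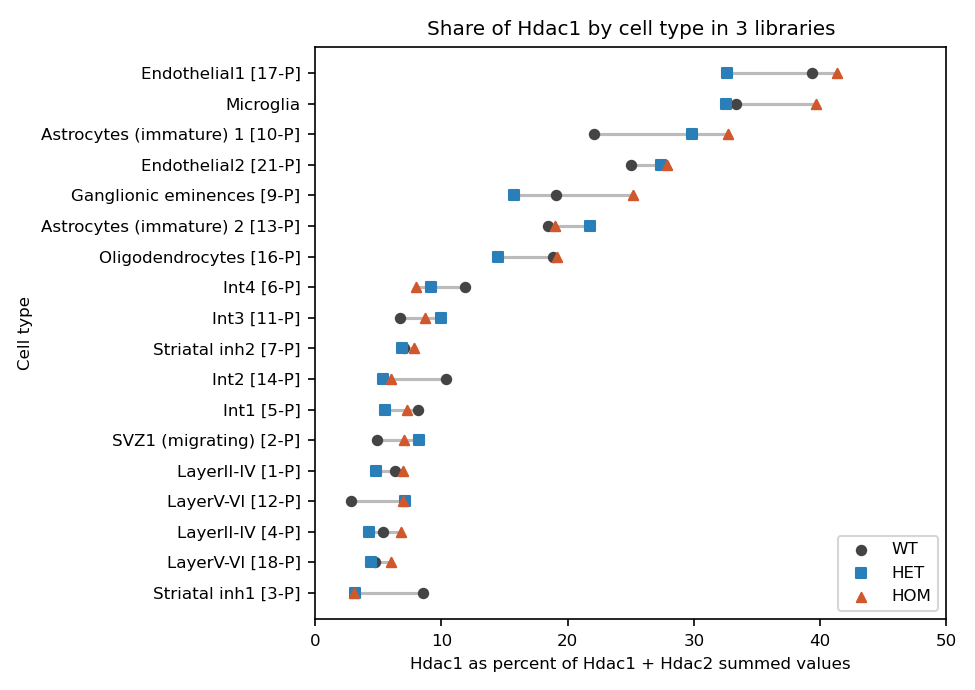
*Hdac1* as percent of the summed *Hdac1* and *Hdac2* values in 18 cell types, with 1 point per library and a grey line over their range. The 7 glial, vascular, microglial and ganglionic eminence types lie between 14.5% and 41.3%, and the 11 neuronal and SVZ1 types at or below 11.9%.

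The RCOR paralogs were spread unevenly as well. *Rcor1* made up 5.82%, 7.45% and 5.10% of the summed *Rcor1* and *Rcor2* values in SVZ1 and 15.95%, 17.5% and 10.7% in LayerII-IV [1-P]. In Microglia it made up 72.7%, 83.3% and 66.7%, and in Endothelial1 [17-P] 66.7%, 66.7% and 58.3%. The sums outside the neurons were very small, with 8, 5 and 4 for *Rcor1* and 3, 1 and 2 for *Rcor2* in Microglia, so those shares are rough. *Rcor1* was low throughout, at 13.04 CPM in the whole WT library, 9.18 in HET and 8.40 in HOM, and all its neighbouring types overlapped.

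*Sin3a*, the scaffold that is known to be needed by dividing cells, was highest in Ganglionic eminences [9-P] at 67.9 in WT, 39.5 in HET and 32.8 CPM in HOM. Int2 [14-P] held 15.5, 11.5 and 6.01 CPM, the lowest mean of the 18 types. *Sin3b* reached 194.7, 322.6 and 235.0 CPM in Astrocytes (immature) 1 [10-P] and 152.0, 173.1 and 160.2 CPM in LayerV-VI [18-P], so the highest and lowest types of *Sin3b* stood apart although no neighbours did. *Hdac3*, the catalytic subunit of NCoR complexes, ranged from 105.7, 110.6 and 94.9 CPM in Oligodendrocytes [16-P] to 53.8, 43.3 and 27.3 CPM in Endothelial1 [17-P]. *Ncor1*, its platform, ranged from 306.6, 259.8 and 241.0 CPM in SVZ1 to 141.6, 90.6 and 97.9 CPM in Microglia.

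The next question was how the levels differed between genotypes within a cell type. A gene was measured in a type where its values summed to at least 50 over both libraries, and the 4 layer types were read first. Of the 10 genes, *Sin3b*, *Hdac2*, *Hdac3*, *Kdm1a* and *Ncor1* were measured in all 4 layer types, *Sin3a*, *Hdac1* and *Rcor2* in 1 or 2 of them, *Rcor1* in no type and *Rest* only in Astrocytes (immature) 2 [13-P]. HET and HOM share the WT library, so a value that is high in WT lowers both comparisons.

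*Kdm1a* was lower in both mutant libraries in each layer type. It held 117.5 in WT, 96.9 in HET and 92.1 CPM in HOM in LayerII-IV [1-P], and 86.8, 65.4 and 80.6 CPM in LayerII-IV [4-P]. In LayerV-VI [12-P] the levels were 153.8, 104.5 and 101.8 CPM, and in LayerV-VI [18-P] 107.8, 71.7 and 78.0 CPM. The mean log2 ratio to WT was -0.46 ± 0.14 (SD over the 4 types) in HET, a fold of 0.728, and -0.38 ± 0.21 in HOM, a fold of 0.769. These means were at the 6.28 and the 16.4 percentile of all genes measured in the 4 types. Over all types measured, *Kdm1a* was lower in 12 of 14 in HET and 13 of 14 in HOM. With the library called HET as the control, as in the other genotype order, *Kdm1a* in the library called WT was higher in 12 of 14 types (layer mean 0.46 ± 0.14) and *Ncor1* in 17 of 18 (0.16 ± 0.15), while in the library called HOM the layer means were 0.08 ± 0.17 and -0.08 ± 0.37. In LayerII-IV [1-P] the share of cells with *Kdm1a* above 0 was 11.9% in WT (10.46 to 13.4), 10.3% in HET (8.90 to 11.9) and 9.89% in HOM (8.63 to 11.3). These intervals overlapped, and the mutant cells were deeper. In LayerII-IV [4-P] the shares were 7.11%, 5.77% and 8.14%, so HOM lay above WT. Both mutant shares were below WT in LayerV-VI [12-P] (16.1%, 12.8% and 12.6%) and LayerV-VI [18-P] (9.93%, 7.17% and 7.68%). The part of depth in these shares was not tested. Among layer neurons with a Y-linked transcript, summed over the 4 types, the log2 ratio of *Kdm1a* was -0.05 in HET and -0.39 in HOM. In all layer neurons summed in this way it was -0.45 and -0.35. The group with a Y-linked transcript held 138 WT, 637 HET and 665 HOM cells. The parts of sex and of the mix of layer types in the HET value were not tested.

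*Ncor1* was lower in HET in all 4 layer types and in 17 of 18 types measured. Its levels in LayerII-IV [1-P] were 258.3 in WT, 198.8 in HET and 208.9 CPM in HOM, and in LayerV-VI [18-P] 217.6, 205.4 and 184.0 CPM. In LayerV-VI [12-P], however, HOM was the highest at 276.4 CPM, against 233.7 in WT and 221.8 in HET. The mean log2 ratio over the layer types was -0.16 ± 0.15 in HET and -0.24 ± 0.37 in HOM, where 15 of 18 types were lower. *Ncor1* has the longest transcript of the 10 genes (9037 bases), and with the trend of all genes by transcript length removed its layer means became 0.081 in HET and 0.059 in HOM.

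*Hdac2* was slightly higher in the mutant libraries in the layer types, with 407.3 in WT, 442.7 in HET and 456.9 CPM in HOM in LayerII-IV [1-P] and 285.2, 344.5 and 306.1 CPM in LayerV-VI [18-P]. The mean log2 ratio was 0.14 ± 0.10 in HET and 0.10 ± 0.06 in HOM, and over all types it was higher in 13 of 18 and 10 of 17. In layer cells with a Y-linked transcript, summed over the 4 types, the ratios were -0.12 and -0.0048. In all layer cells summed in this way they were 0.12 and 0.14, so the direction of *Hdac2* depended on the cells used. Mitochondrial transcripts in the layer types lay between 52671 and 75502 CPM in WT, 50311 and 75026 CPM in HET, and 34726 and 56473 CPM in HOM, where each of the 4 types was below its WT value. Haemoglobin transcripts lay between 793 and 1578 CPM in WT, 477 and 1144 CPM in HET, and 841 and 2325 CPM in HOM. With mitochondrial, haemoglobin and other technical genes left out of the total, the HOM means became 0.047 for *Hdac2* and -0.43 for *Kdm1a*. *Hdac3* gave 0.23 ± 0.23 and 0.14 ± 0.38, with types on both sides of 0, and 1.06 and 0.98 in the cells with a Y-linked transcript. *Sin3b* gave 0.04 ± 0.32 in HET and -0.27 ± 0.29 in HOM, and LayerV-VI [12-P], at 221.4 in WT, 165.0 in HET and 142.8 CPM in HOM, was the lowest ratio in both.

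Set against all genes, these counts were common. In HET, 2 of the 5 genes measured in the 4 layer types were lower in all of them (*Kdm1a* and *Ncor1*), as were 23.8% of 3248 genes, and 1 was higher in all (*Hdac2*), as were 20.9%. In HOM, 1 was lower (*Kdm1a*) beside 25.6% of 3388 genes, and 1 was higher (*Hdac2*) beside 21.4%. The median of the 5 mean log2 ratios was 0.04 in HET and -0.24 in HOM, and over all genes so measured it was -0.02 and -0.03. Counted over all cell types, *Kdm1a* and *Ncor1* were lower in at least 80% of the types in both comparisons, as were 16.4% of 2071 genes in HET and 23.2% of 2258 genes in HOM. None of the 5 was higher in at least 80% of types, against 24.6% and 27.5% of genes. This count was chosen after the values were seen, and types of 1 library are not independent.

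**Figure D4:**
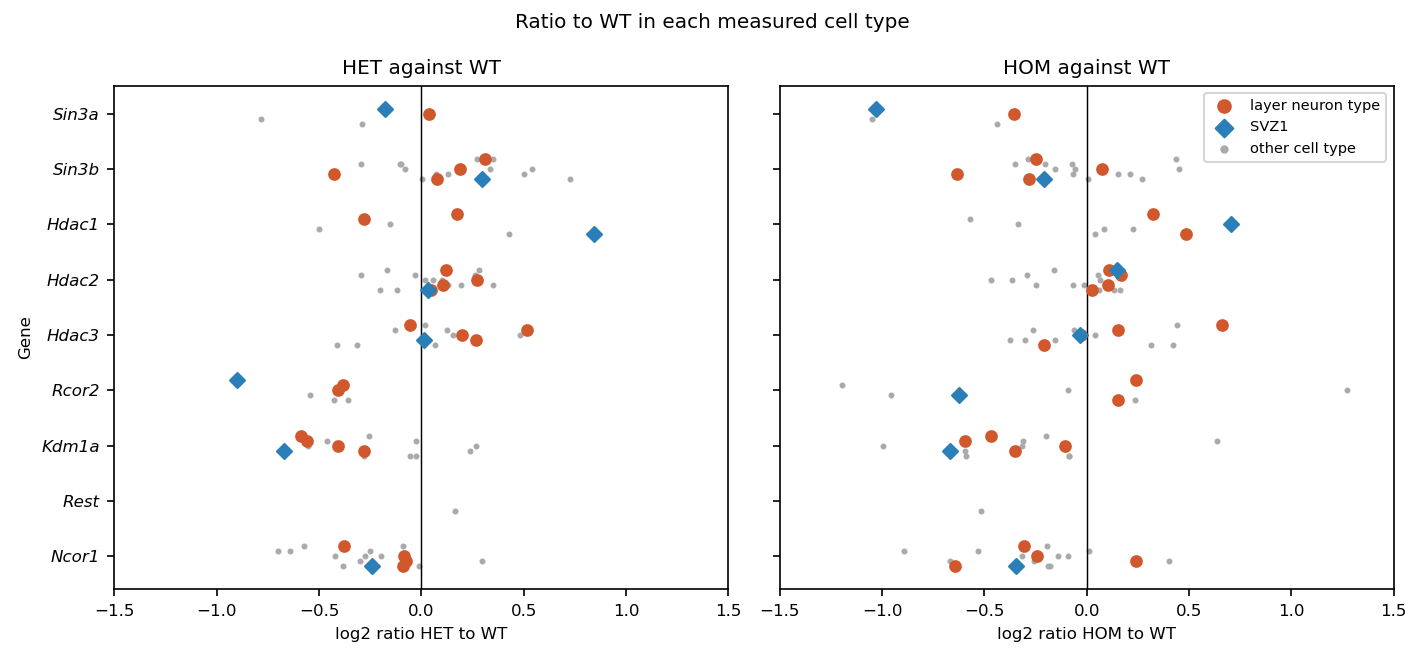
Log2 ratio to WT of 9 corepressor genes in each measured cell type, HET on the left and HOM on the right, with layer neuron types as orange circles, SVZ1 as blue diamonds and other types as grey points (*Rcor1* was measured in no type). *Kdm1a* and *Ncor1* lie mostly left of 0, *Hdac2* lies close to 0, and *Rcor2* and *Hdac1* spread to both sides in HOM.

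In SVZ1, the type with the highest *Rcor2* and *Kdm1a*, both genes were lower in the mutant libraries. From the levels given above, the log2 ratio of *Rcor2* was -0.90 in HET and -0.62 in HOM, and that of *Kdm1a* -0.67 in both. How common such ratios were among all genes in SVZ1 was not counted. The shares of SVZ1 cells with *Kdm1a* above 0 were 27.7% in WT (24.9 to 30.6), 19.1% in HET (15.9 to 22.6) and 18.7% in HOM (16.03 to 21.6). These intervals cover counting error within 1 library each and do not test the genotypes. Within SVZ1 cells with a Y-linked transcript (112 WT, 122 HET and 183 HOM cells) *Kdm1a* was at -0.70 and -0.59 and *Rcor2* at -1.66 and -0.52, and in cells with at least 2000 molecules they were at -0.88 and -0.69 and at -0.99 and -0.79. *Ncor1* was at -0.24 and -0.35 in SVZ1, at -0.68 and -0.49 in the cells with a Y-linked transcript, and at -0.06 and -0.02 with the length trend removed. *Hdac2* was at 0.03 and 0.15 in SVZ1 but at -0.46 and -0.28 in the cells with a Y-linked transcript, which turned its direction. *Sin3a*, summed over SVZ1 and ganglionic eminences, was at 47.5 in WT, 34.9 in HET and 23.2 CPM in HOM, a log2 ratio of -0.45 and -1.03.

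*Rcor2* and *Hdac1* differed between neuron classes in HOM, without a share of all genes to set beside them. With the layer types summed, *Rcor2* was at 39.2 in WT, 27.2 in HET and 48.8 CPM in HOM, so the log2 ratio was -0.53 in HET but 0.32 in HOM. Over all types *Rcor2* was lower in 6 of 6 measured types in HET but in only 4 of 8 in HOM, where Int1 [5-P] was at 45.1 against 18.6 CPM in WT and Int4 [6-P] at 30.8 against 70.6 CPM. In layer cells with a Y-linked transcript the HOM value of *Rcor2* was -0.26, opposite in direction to that over all layer cells. *Hdac1* was at 20.8, 19.8 and 28.5 CPM in the layer types, a log2 ratio of -0.07 in HET and 0.45 in HOM, and in SVZ1 it was at 27.1, 48.6 and 44.3 CPM. *Sin3a* in the layer types was at 23.1, 20.5 and 17.8 CPM. *Rcor1* was at 10.9, 10.1 and 8.98 CPM and *Rest* at 5.57, 3.08 and 5.21 CPM there, near the lowest levels that could be read. In Astrocytes (immature) 2 [13-P] the log2 ratio of *Rest* was 0.16 in HET and -0.52 in HOM.

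Other subunits of the same complexes, listed by name with earlier results of these data known, were described by the same counts over the 4 layer types. The trend by transcript length, which turned the *Ncor1* means, was not removed from the values of any list. Of 15 further SIN3 complex genes in the matrix, 8 were measured in HET and 6 in HOM, with median log2 ratios of 0.02 and -0.04. *Sinhcaf*, a subunit of the SIN3 complex, was at -0.67 in HET and *Phf12* at -0.49, both lower in all 4 types, and *Arid4b* was lower in all 4 in HOM at -0.38, and the others were mixed. Of 10 NuRD genes, which form the other large complex with HDAC1 and HDAC2, 6 were measured. Their median was -0.24 in HET, with 3 lower in all 4 types beside 23.8% of all genes, and -0.43 in HOM, with 4 lower beside 25.6%. The remodelling ATPase *Chd4* was at 300.3 in WT, 220.3 in HET and 212.9 CPM in HOM in LayerII-IV [1-P], with mean log2 ratios of -0.51 and -0.68, and the neuronal ATPase *Chd5* was at -0.79 in HOM.

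CoREST partners had medians of -0.21 over 5 measured genes in HET and -0.03 over 6 in HOM. *Ehmt2*, a histone methyltransferase, was lower in all 4 types in HET at -0.39, and no CoREST partner was lower or higher in all 4 in HOM. The CoREST list holds the X-linked *Zmym3*, at 0.25 and 0.13, whose values also compare animals of different sex. The same holds for any X-linked gene of the other lists, and none was left out of a median or count for this. Of the 8 other histone deacetylases none was measured in all 4 types in HET and only *Hdac5* in HOM, at -0.06.

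Neuronal genes known as REST targets were mixed. Of 20 listed, 13 were measured in HET and 14 in HOM, with medians of -0.04 and -0.02, and in each comparison 4 were lower and 2 were higher in all 4 layer types. Over all genes 23.8% were lower and 20.9% higher in HET, and 25.6% and 21.4% in HOM, so these counts lay near the background. The growth cone stathmins *Stmn2* and *Stmn3* were the higher ones, at 0.46 and 0.37 in HET and 0.61 and 0.44 in HOM. In LayerII-IV [1-P] *Stmn2* was at 1730.1 in WT, 2423 in HET and 2728 CPM in HOM. Among those lower in all 4 types were the sodium channel genes *Scn3b* at -0.36 in HET and *Scn2a* at -0.43 in HOM.

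**Figure D5:**
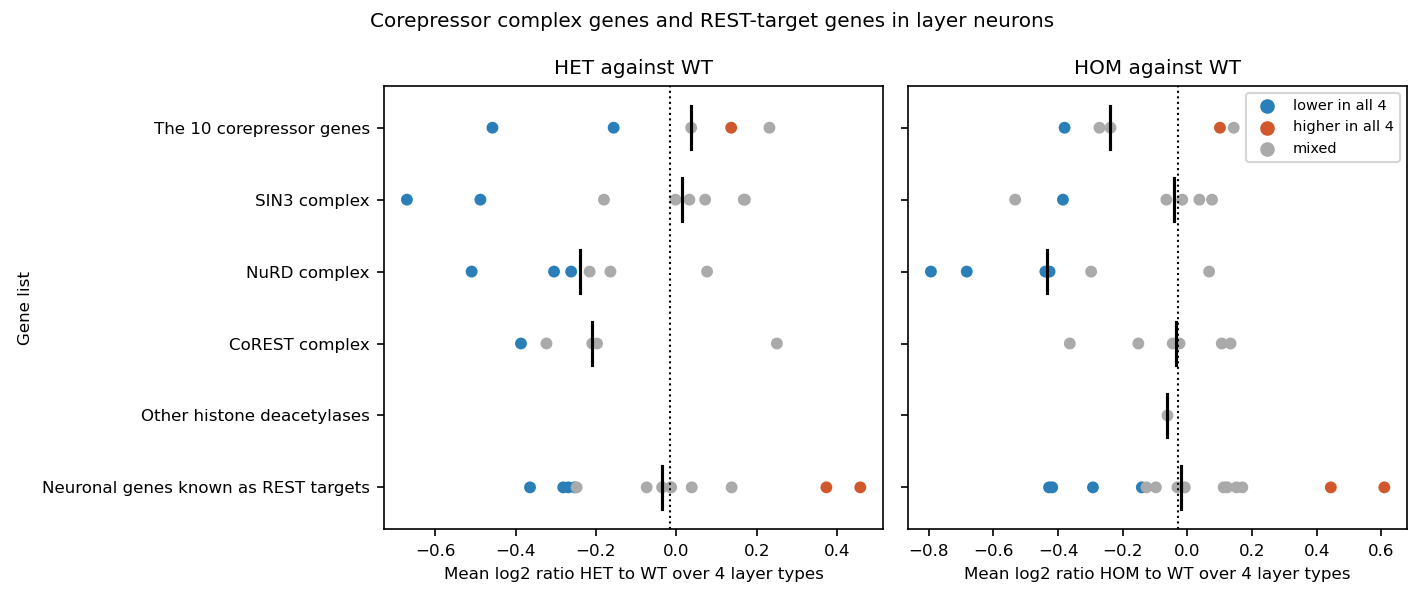
Mean log2 ratio to WT over the 4 layer types for each measured gene of the corepressor lists shown and of the REST-target list, HET on the left and HOM on the right. Blue and orange points were lower or higher in all 4 types, black bars are list medians and the dotted line is the median of all genes, from which the NuRD list lies furthest at -0.24 and -0.43. The trend by transcript length was not removed.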

How the data were processed

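Reads were aligned to mm10 with Cell Ranger 4.0.0 and processed in Seurat 4.0, per the submitters' processing notes and the study's methods, and cell types were transferred from a reference atlas by the authors. Values of the deposited gene matrix are whole numbers in a score unit and not raw molecules. A cell's matrix total ranged from 825 to 1952 and its molecules from 499 to 17602, with the same number in just 617 of the 36263 cells. Values were therefore treated as corrected for depth, and no count model was fitted. An exact binomial interval on summed values served only as a spread for some single genes, as given below. Molecules as counts, mitochondrial content as percent, cell type and genotype of each cell were taken from the deposited cell table. The authors' deposited comparison tables hold a log2 fold change, p-values and fractions of cells, and were not used. No doublet caller was run, and how the authors treated doublets is not stated in the paper or labels.

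For each library and type, the summed values of a gene were divided by the sum of every gene and multiplied by 1000000 (CPM). Log2 ratios to WT were taken where the sum over both libraries was at least 50. Class contrasts used log2(CPM + 10) in 10 neuronal, 3 non-neural (microglia and both endothelial types) and 3 glial and dividing types. Transcript lengths were the longest of each gene in GENCODE M21. Steps ran in Python 3.11.15 with numpy 2.4.6, scipy 1.17.1 and pandas 2.3.3, and were checked on simulated data. The planned unit of raw counts was replaced by the depth-corrected value, and no test was run, since each genotype had 1 library and cells were not tied to animals. The precision of low genes is limited by their sums, which are printed for only some of them. For *Rest* the sums in WT, HET and HOM were 6, 6 and 7 in LayerII-IV [1-P] and 3, 2 and 2 in SVZ1.

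The genes named were the 10 corepressor genes, *Myt1l*, up to 3 genes per list and comparison with the largest absolute mean ratio among those measured in all 4 layer types, and genes among the 3 most like *Rest*, *Rcor2*, *Hdac1* and *Hdac2*. *Scn3b*, *Scn2a* and *Zmym3* fall under that rule, and other genes of the lists are given by counts. A few genes under the rule, and 1 of the lists, are not reported here. The genes and lists were chosen with earlier results of these data known.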

Additional observations from a re-analysis of the deposited data

Results flagged for a closer look

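In *Hdac1* and *Rcor2*, the HOM to WT ratio in the layer neurons, summed over the 4 types, had the opposite sign to that in other cell classes, with at least 0.3 on the log2 scale on either side. *Hdac1* was at 0.45 in layer neurons, -0.51 in interneurons (difference -0.97), -0.33 in striatal neurons (difference -0.79) and -0.43 in the endothelial types (difference -0.89). *Rcor2* was at 0.32 in layer neurons, -0.40 in interneurons (difference -0.72) and -0.68 in SVZ1 and ganglionic eminences together (difference -0.996). In cells with at least 2000 molecules the layer value was 0.05 for *Rcor2*, under the 0.3 used here, and 0.54 for *Hdac1*. In layer cells with a Y-linked transcript that of *Rcor2* was -0.26. The summed values behind *Hdac1* were 101 in WT and 159 in HOM layer neurons, 83 and 83 in interneurons, 22 and 36 in striatal neurons and 22 and 36 in the endothelial types. For *Rcor2* they were 190 and 272 in layer neurons, 78 and 84 in interneurons and 325 and 171 in the progenitor types. These differences were not tested, since each genotype had 1 library. The share of all genes that met the same rule was not counted, so how common such differences are is not known. Within the interneurons the types themselves differed in *Rcor2*, with 1.27 in Int1 [5-P] and -1.19 in Int4 [6-P].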

How the results depend on the processing

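The median log2 ratio of the corepressor genes measured in all 4 layer types was 0.04 in HET and -0.24 in HOM, and it moved with the genes that entered it and with the length trend. In HET it became 0.14 with a minimum sum of 200 (1 gene), 0.14 in cells with at least 2000 molecules (3 genes), -0.12 with the layer types joined (9 genes), and -0.060 without *Hdac2* or without *Hdac3*. In HOM it became 0.10 with a minimum sum of 20 (7 genes), -0.069 with a minimum sum of 200 (2 genes), -0.063 in cells with at least 2000 molecules (2 genes), 0.059 with the length trend removed, -0.069 without *Sin3b* or without *Kdm1a*, and -0.086 without *Ncor1*. Of 30 such values 18 moved by less than the spread between the types. For genes measured in all 4 layer types the spread was the SD over them. For other layer values and for the progenitors it came from the exact binomial interval. Class contrasts and *Hdac1* shares used the SD over 3 libraries. Among values of single genes, 295 stayed within their spread, 59 moved beyond it and 3 were reversed. The 295 include minimum sums of 20 and 200, which select genes and cannot change the ratio of a gene kept. Among single genes the sign turned in 19, of which 13 stayed within the spread and 6 moved beyond it. The 6 were *Hdac2* in layer cells with a Y-linked transcript (-0.12 in HET and -0.0048 in HOM) and in SVZ1 cells with one (-0.46 and -0.28), *Rcor2* in HOM layer cells with one (-0.26), and *Ncor1* in HET with the length trend removed (0.081). Layer cells with a Y-linked transcript were summed over the 4 types before the ratio. TMM and median-of-ratios scaling raised the median of all genes from -0.02 to 0.07 and 0.06 in HET and from -0.03 to 0.08 and 0.09 in HOM, and the corepressor median with it. *Rest* outside the neurons stayed higher with a pseudocount of 1 CPM (3.30) and of 50 CPM (0.86), and in cells with at least 2000 molecules the *Hdac1* share of HET Int2 [14-P] (20.8%) passed that of HET Ganglionic eminences [9-P] (16.4%). Ratios in SVZ1, the other genotype order and the count over 80% of types were added after seeing the data. No paired analysis was possible because each genotype had 1 library, and for the same reason no replicate could be left out.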

Other observations

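The 3 small types left out of the comparisons held few cells. SVZ2 (migrating) [8-P] had 44 WT, 19 HET and 3 HOM cells, and in the WT cells *Rcor2* was at 205.2 CPM, *Kdm1a* at 279.8 CPM and *Hdac2* at 559.5 CPM, with *Rest* at 0 of 44 cells (upper exact 95% limit 8.04%). LayerI [19-P] had 71, 114 and 237 cells, with *Hdac2* at 344.4, 259.8 and 296.5 CPM and *Kdm1a* at 102.0, 70.9 and 50.1 CPM. Choroid plexus [20-P] had 8, 8 and 7 cells, too few to read a level.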
